A study of Taeniopygia guttata with 8 samples.

Results

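Acetylated lysine 27 of histone H3 (H3K27ac) was mapped by chromatin immunoprecipitation and sequencing in Area X and RA of adult male zebra finches. Of the 35958 genomic regions in the deposited count table, 611 had more H3K27ac signal in every Area X library than in any RA library. These regions were chosen by their CPM (a region's reads over the library's total reads in all regions, scaled to a total of 1000000). A region was kept where the lowest of the 7 Area X libraries exceeded the highest of the 7 RA libraries and the mean Area X CPM was at least 10. They are called Area X-high regions here. They made up 1.70% of all regions and 3.04% of the 20090 regions that reached 10 CPM on average in Area X. Since the CPM of both nuclei chose them, their Area X and RA levels are given as a description, with no test.

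H3K27ac marks active promoters and enhancers, so a map of it shows which regulatory DNA is in use in a tissue. In mammalian tissues, broad stretches of it lie over clustered enhancers near genes that define a cell type. Area X is the song nucleus of the avian striatum. It is rich in inhibitory striatal neurons, receives dopaminergic input and belongs to the basal ganglia loop needed for song learning. RA, the robust nucleus of the arcopallium, is pallial tissue whose excitatory projection neurons drive the brainstem centres for singing.

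The 4 groups were Area X of singing birds (4 libraries), Area X of silent birds (3), RA of singing birds (4) and RA of silent birds (3). Birds were kept alone in sound-proofed boxes and their brains were collected after lights-on and 1 to 2 hours of singing or of silence, with 18 birds per behaviour. The singing samples carry a label of 2 hours. Tissue was pooled from 6 birds, and the labels state 3 pools per behaviour. The source name speaks of laser capture, but according to the protocol the nuclei were dissected out of 400 µm sections. No genotype or drug treatment separated the groups. Columns of the table are marked minus or plus. Plus was read as singing and minus as silence, and every comparison of behaviour rests on that reading. Regions carry positions and no gene names, so the identity of the nuclei was not checked against marker genes, and whole-cell extracts were not analysed here. In dissected tissue, fewer cells of a type and less acetylation per cell cannot be told apart.

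Reads in regions ranged between 4.64 M and 10.6 M (M, 1e+06 reads) in the Area X libraries and between 0.203 M and 9.48 M in the RA libraries. RA singing library 4 was the shallowest, so that 1 read there equals 4.94 CPM. It had a median of 8 reads over the 611 regions, no read in 21 of them and 1 to 3 reads in 157.

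The 611 regions took 7.03% ± 0.42 of the reads of an Area X library and 3.50% ± 1.10 of those of an RA library (SD, n = 7 each). The share was 6.76%, 6.61%, 7.35% and 7.49% in the Area X singing libraries 1 to 4, and 6.46%, 7.12% and 7.44% in the Area X silent libraries 1 to 3. In RA it was 2.64%, 3.72%, 3.37% and 4.76% in the singing libraries and 2.49%, 5.11% and 2.39% in the silent libraries. The Area X libraries were thus close together. The RA libraries spread wider, with RA silent library 2 and RA singing library 4 nearest to Area X.

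Those 2 RA libraries set the limit in most regions. RA silent library 2 was the highest RA library in 332 of the 611 regions (54.3%) and RA singing library 4 in 156 (25.5%). On the Area X side the lowest library was spread more evenly, with singing library 1 lowest in 155 regions, singing library 2 in 118 and silent library 1 in 110. RA singing library 4 alone kept out 642 further regions, whose median count in it was 13 reads. RA silent library 2 alone kept out 478. Without both of them, a choice made after seeing the data, the rule took 2609 regions, all 611 included.

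**Figure D1:**
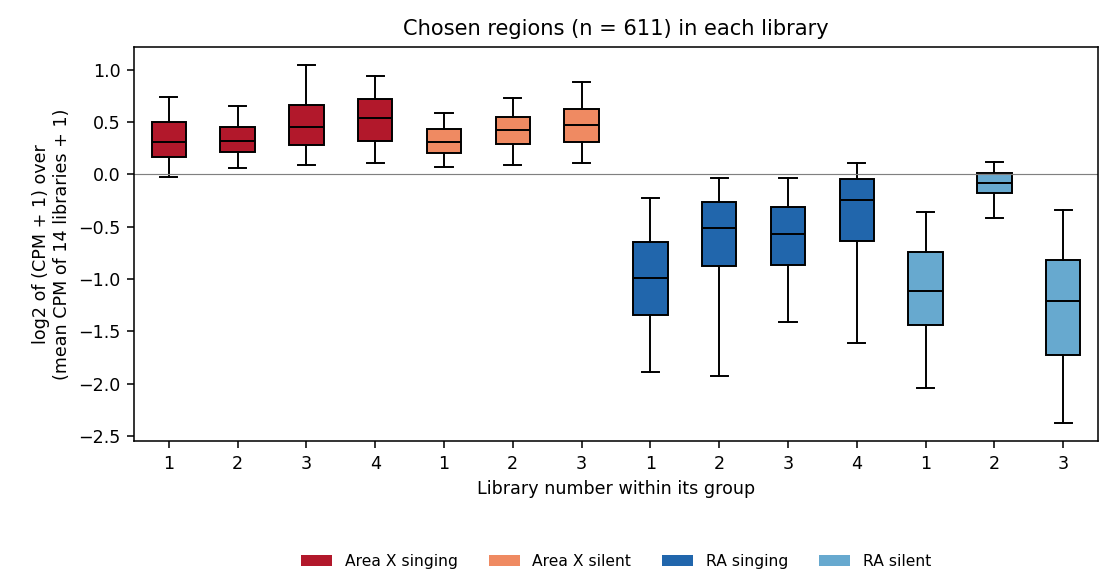
Boxes show, for each of the 14 libraries, the log2 ratio of CPM + 1 to the mean of all libraries + 1 over the 611 regions (box, quartiles; line, median; whiskers, 5th and 95th percentiles). The Area X boxes lie above 0, and RA silent library 2 and RA singing library 4 lie nearest to them.

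The number of regions taken depended on the scaling and on single libraries. With CPM scaled by the trimmed mean of M-values (TMM, a scaling that sets most regions equal between libraries) the rule took 1449 regions, 602 of the 611 among them. With DESeq2 size factors it took 1331, all 611 included. Under plain CPM the median log2 ratio of Area X to RA over all regions was -0.32, whereas under TMM it was -0.01. Leaving out Area X singing library 1, RA singing library 4 or RA silent library 2 gave 1143, 1253 and 1089 regions. Separation of all libraries, at any mean CPM, held in 692 regions toward Area X, or 1.92% of the table. The same rule turned round, RA above Area X with a mean RA CPM of at least 10, took 1865 regions under plain CPM and 1117 under TMM.

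The separation was narrow in most regions. The lowest Area X library exceeded the highest RA library by a median factor of 1.09 (quartiles 1.04 and 1.16), and the factor was under 1.1 in 334 regions and at least 1.5 in 7. At chrUn:155919138-155919565, just inside the rule, the lowest Area X CPM was 6.70 and the highest RA CPM also 6.70, a factor of 1.0003. Just outside it, at chr1:113653078-113657312, both were 217 CPM, a factor of 0.99996. At the floor, chrUn:128638976-128639603 was kept with a mean Area X CPM of 10.2 and chr1:3378740-3379216 was left out with 9.95.

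The widest separation was at chr9:26417628-26418103, a region of 476 bp. Its CPM was 17.4, 12, 12.6 and 17.5 in the Area X singing libraries and 16.2, 12.9 and 14.3 in the Area X silent libraries. In RA the singing libraries had 4.10, 0, 5.28 and 4.94 CPM and the silent libraries 4.62, 6.01 and 3.8. The lowest Area X value was 2.00 times the highest RA value. At chr13:450613-451558, next in order with a factor of 1.88, the mean was 55.9 ± 4.69 CPM over the Area X libraries and 16.9 ± 7.01 CPM over the RA libraries (SD, n = 7 each). Both regions were picked after their values were seen. Every Area X library lay between 48.9 and 62.6 CPM there, and no RA library was above 26.0.

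The ratio of mean Area X to mean RA CPM had a median of 2.14 over the 611 regions (quartiles 1.85 and 2.49) and ran between 1.18 and 6.97. It was at least 2 in 384 regions (62.8%), at least 3 in 54 and at least 4 in 9. In the 1865 RA-high regions the ratio of RA to Area X had a median of 2.82. Both medians are on the column-sum scale, where the median log2 ratio of Area X to RA over all regions was -0.32. On the TMM scale of the edgeR fit, the 611 regions had a median log2 fold change of 1.46, beside 1.10 on the column-sum scale. No such median was taken for the RA-high regions, so it was not settled which set had the larger ratios. All 611 regions were called higher in Area X by the edgeR test, beside 10233 of all 35954 tested (28.5%), but the rule used that contrast and the count says nothing more. Under total-count scaling 603 of them were called, when 7045 regions of the whole table were called toward Area X and 12301 toward RA, and with TMM 10233 and 9080.

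Ranked by CPM, which adds up over the width of a region, the strongest Area X-high regions were broad. Per kb of region, the 10 strongest had 37.9 to 80.5 CPM in Area X. Over all 611 the median was 34.8 CPM per kb, the third quartile 45.0 and the highest value 137. All 10 thus lay above the median per kb, and most above the third quartile, but well below the highest value. At chr2:26850722-26874974, the highest of all and with 24253 bp also the widest, CPM was 1501, 1458, 1762 and 1641 in the Area X singing libraries and 1343, 1601 and 1781 in the Area X silent libraries. In RA it was 425, 701, 511 and 1205 in the singing libraries and 416, 1135 and 505 in the silent libraries. Area X averaged 1584 ± 161 and RA 700 ± 335 (SD, n = 7 each), a ratio of 2.26. RA singing library 4 and RA silent library 2 came nearest to the lowest Area X library, while the other 5 RA libraries stayed at or below 701.

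The second, chr17:9068691-9090603, spanned 21913 bp. It had 980, 996, 1096 and 1244 CPM in the Area X singing libraries and 999, 1087 and 1231 in the Area X silent libraries, against 250, 508, 500 and 741 in the RA singing libraries and 236, 721 and 215 in the RA silent libraries. Its ratio was 2.41, and the gap between the nuclei was wider here, with a factor of 1.32. The other 8 of the 10 strongest were 7079 to 19204 bp wide, had mean Area X CPM between 570 and 767 and ratios between 2.00 and 2.66. In order of level they lay on chromosome 11, on the random part of chromosome 26, and on chromosomes 13, 23, 4A, 19, 13 and 3. The largest ratio among the 10 was at chr3:39453715-39460793, with 570 ± 65.3 CPM in Area X and 214 ± 119 in RA.

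The largest ratios belonged to small regions. The 10 regions with the largest ratio were 395 to 1575 bp wide and had mean Area X CPM of 10.2 to 50.3. The largest was at chrUn:128638976-128639603, where CPM was 5.59, 8.88, 15.1 and 15.1 in the Area X singing libraries and 4.74, 10.4 and 11.3 in the Area X silent libraries. In RA the singing libraries had 1.02, 0, 2.64 and 0 and the silent libraries 2.22, 3.46 and 0.844. This gave a ratio of 6.97. At chr19:1431693-1432351 the mean was 17.0 ± 3.44 CPM over the Area X libraries and 3.40 ± 3.97 over the RA libraries (SD, n = 7 each), a ratio of 5.02. RA silent library 2 stood at 11.3 CPM there, beside 0 to 5.28 in the other RA libraries. RA singing library 4 had no read in 5 of these 10 regions and 1 to 4 reads in the rest, so its CPM there rests on few reads.

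Across the 611 regions the ratio went down with width (Spearman coefficient -0.33) and with mean Area X CPM (-0.33), and width and CPM went together (0.93). These coefficients describe regions that share libraries and carry no test. The rule used the CPM of both nuclei. Where reads are few and libraries vary more, a region is more likely to pass with a large ratio. The trend, and the small size of the regions with the largest ratios, can thus come from the choice, which was not tested. The 54 regions with a ratio of at least 3 had a median width of 918 bp and a median Area X CPM of 27.8. The 227 with a ratio under 2 had 2596 bp and 97.0 CPM.

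The Area X-high regions were wide as a group. Their median width was 1964 bp (quartiles 1051 and 3641 bp), beside 764 bp over all regions and 1310 bp over those with a mean Area X CPM of at least 10. RA-high regions had a median of 1474 bp. The narrowest was chr18:5985029-5985311 with 283 bp, 12.8 ± 2.07 CPM over the Area X libraries and 5.50 ± 1.43 over the RA libraries (SD, n = 7 each). Together they covered 1741 kb, or 3.93% of the covered sequence. Per kb of region, the median level was 34.8 CPM in Area X and 16.5 CPM in RA.

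By width, 136 of 1549 regions over 4000 bp were chosen (8.78%), beside 166 of 4071 over 2000 and up to 4000 bp (4.08%), 164 of 8349 over 1000 and up to 2000 bp (1.96%), 116 of 10957 over 500 and up to 1000 bp (1.06%) and 29 of 11032 up to 500 bp (0.263%). The share also went with signal: it was 12.4% of the 1878 regions at 100 CPM or more in Area X and 1.10% of the 7578 regions between 10 and 20 CPM. Within one class of signal, regions over 2000 bp were not chosen more often than those over 1000 and up to 2000 bp. At 100 CPM or more, 11.9% of regions over 4000 bp, 13% of those over 2000 and up to 4000 bp and 14.3% of those over 1000 and up to 2000 bp were chosen. Between 20 and 50 CPM these shares were 0%, 0.630% and 1.95%, and 3.65% for those over 500 and up to 1000 bp. Regions up to 500 bp went the other way there, with 1.35% (1 of 74). Between 50 and 100 CPM the shares were 0%, 4.25% and 6.34%, and 4.55% (3 of 66) for those over 500 and up to 1000 bp. The part of counting error in these shares was not tested.

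**Figure D2:**
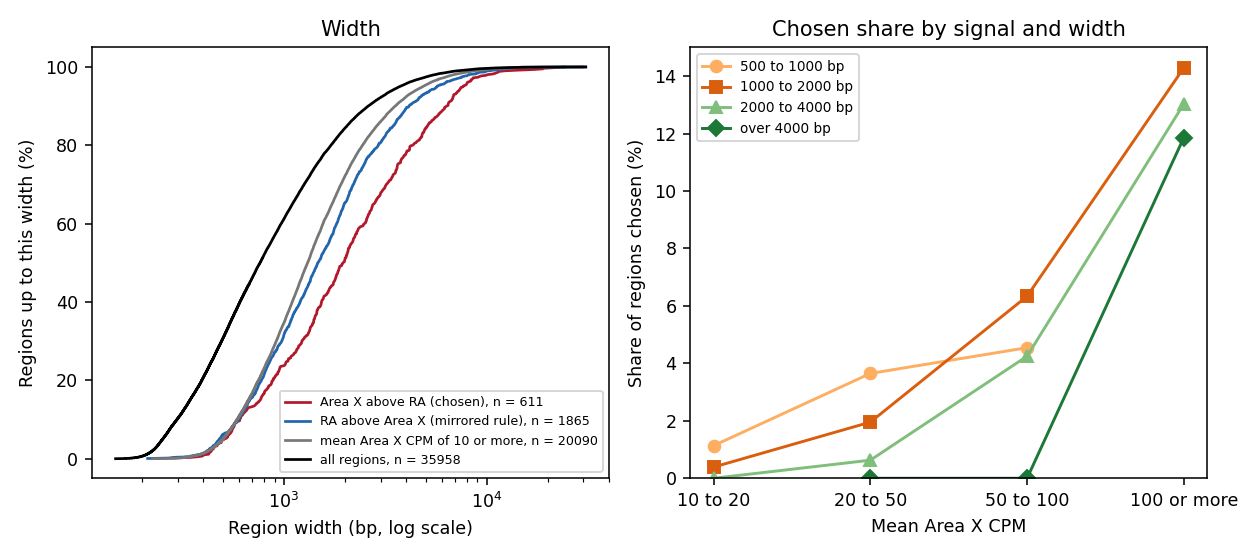
Left, cumulative share of regions (%) by width in bp, on a log axis, for the 611 Area X-high regions, the 1865 RA-high regions, the 20090 regions with at least 10 CPM in Area X and all regions. Right, share of regions chosen (%) by class of mean Area X CPM, a line per width class over 500 bp (points with under 50 regions not drawn): the share was highest at the highest signal drawn in each class, and at 100 CPM or more it lay between 11.9% and 14.3%.

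The 611 regions lay on 42 of the 67 chromosomes and unplaced sequences in the table. Of them, 182 were on the large chromosomes 1, 1A, 2 to 5 and Z, which was 1.21% of the regions there, and 371 on the other placed chromosomes, 2.13% of theirs. A further 58 lay on unplaced or random sequence (1.63%). RA-high regions also took a larger share of the smaller chromosomes, 6.28% beside 4.47% of the large ones, so this lean was not seen toward Area X alone. The chosen regions of the smaller chromosomes had a median width of 2232 bp, those of the large chromosomes 1462 bp.

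Among chromosomes with at least 200 regions, the highest shares were on chromosome 28 (17 of 381 regions, 4.46%), the random part of chromosome 8 (10 of 289, 3.46%) and chromosome 26 (12 of 347, 3.46%). The lowest were on chromosome Z (9 of 1240, 0.726%), chromosome 1A (15 of 1863, 0.805%) and chromosome 11 (6 of 737, 0.814%). On chromosome 28 the RA-high share was equal, with 17 regions, whereas chromosome 11 had 63 RA-high regions (8.55%) and chromosome Z 70 (5.65%). The 6 Area X-high regions of chromosome 11 had a median width of 7602 bp.

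**Figure D3:**
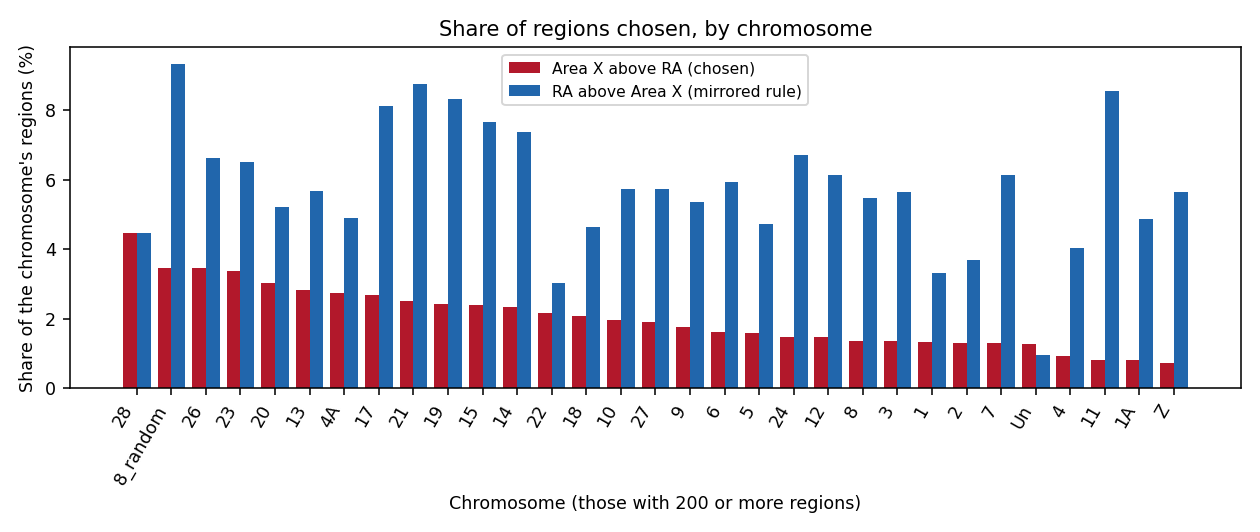
Share of each chromosome's regions (%) that was Area X-high (red, sorted) or RA-high by the mirrored rule (blue), for chromosomes with at least 200 regions. Area X-high shares run between 4.46% on chromosome 28 and 0.726% on chromosome Z.

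Most Area X-high regions stood alone, in a table where 1.70% of regions were chosen. With regions up to 10000 bp apart taken as one set, 467 (76.4%) had no other chosen region beside them, 100 were in pairs, and 44 (7.20%) lay in 13 clusters of at least 3. Of the 1865 RA-high regions, 66.8% stood alone and 11.3% lay in 56 clusters. Of the 516 Area X-high regions with any region within 10000 bp, 99 (19.2%) had a chosen one as the next region. In the RA-high set this was 29.2%. That set holds more regions, and no test was made of the difference. Both figures, which count a neighbour on either side, lay above the share of all regions chosen. That share was 1.70% for Area X-high and 5.19% for RA-high regions. With TMM-scaled CPM there were 46 clusters and with DESeq2 size factors 41. Leaving out Area X singing library 1, RA singing library 2, RA singing library 4 or RA silent library 2 gave 34, 20, 38 and 26.

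The regions next to a chosen one leaned the same way without being chosen. Of the 644 unchosen regions directly beside an Area X-high region and within 10000 bp of it, 513 (79.7%) had a higher mean CPM in Area X, where 38.0% of all regions did. Their median ratio of Area X to RA was 1.58, beside 0.80 over all regions. Among the 644, 9 were RA-high.

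The cluster with most regions was on the random part of chromosome 26, at chr26_random:1089330-1140743, with 6 chosen regions among 7 in 51414 bp. Its summed CPM over the chosen regions was 1279, 1295, 1459 and 1606 in the Area X singing libraries and 1341, 1474 and 1744 in the Area X silent libraries. The RA singing libraries had 443, 585, 646 and 983 and the RA silent libraries 373, 1061 and 419. All 6 regions were 1.82 to 2.77 times as high in Area X as in RA by their means. The strongest, chr26_random:1121540-1140743, held 752 ± 105 CPM over the Area X libraries and 351 ± 163 over the RA libraries (SD, n = 7 each). The unchosen region inside the cluster also had a higher mean in Area X.

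A cluster of 4 regions lay at chr4A:19066542-19086777 and another at chr28:1778155-1795577. The summed CPM of the first averaged 324 ± 40.2 over the Area X libraries and 153 ± 58.6 over the RA libraries (SD, n = 7 each). That of the second averaged 280 ± 35.6 over the Area X libraries and 145 ± 42.5 over the RA libraries. The strongest sum of all belonged to 3 regions at chr17:9068691-9102514, with 1511 ± 142 CPM in Area X and 634 ± 316 in RA. The cluster of 3 at chr13:432336-458521 had 861 ± 61.1 CPM in Area X beside 364 ± 198 in RA, and holds the sharply separated chr13:450613-451558. The largest ratio of sums was 2.77, for 3 regions at chr6:35651758-35666484, with 410 ± 65.8 CPM in Area X and 148 ± 76.2 in RA, and was picked after its values were seen.

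**Figure D4:**
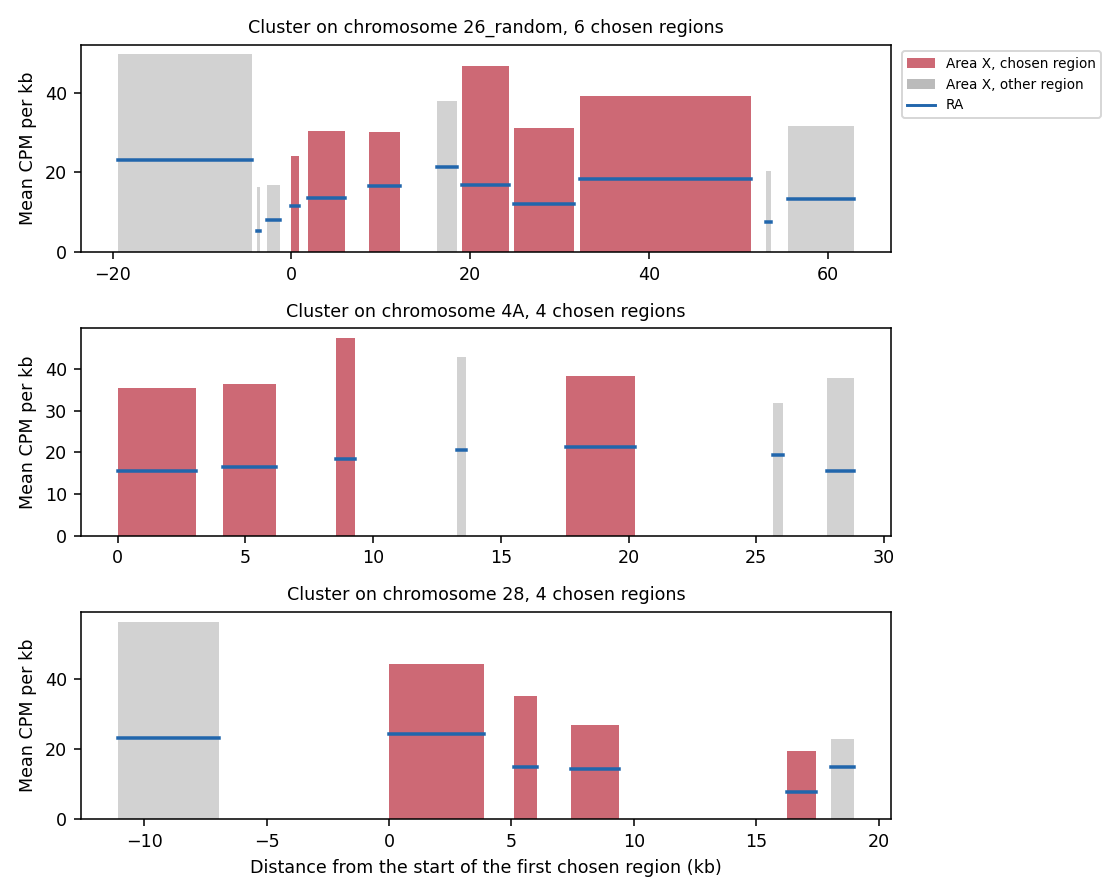
Mean CPM per kb in Area X (bars; red, chosen; grey, other regions) and in RA (blue lines) along the 3 clusters with most chosen regions, by distance in kb from the first chosen region; bar width is region width. RA lies below Area X in every chosen region and also in the grey regions beside and between them.

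The comparison of behaviour addressed whether singing changed H3K27ac at these regions. The rule did not use this contrast, but it did use the CPM of the same libraries. A region with a low Area X library or a high RA library of either behaviour was left out. The choice can thus limit how large a difference between behaviours is seen here. No Area X-high region passed the edgeR quasi-likelihood test of singing against silent Area X (0 of 611, beside 0% of the 35954 regions tested; lowest adjusted p = 1.00). At an unadjusted edgeR p below 0.05 there were 3 of 611, beside 384 of all regions (1.07%). With single Area X libraries left out there were between 0 and 10 of 611. The 10 came without Area X singing library 1, beside 671 of all regions (1.87%). The 0 came without Area X silent library 2, beside 0.395% of all regions, and without Area X singing library 3, beside 0.743%. DESeq2 called 1 region in the table and none of the 611. The median log2 fold change of singing over silent was 0.01 over the 611 regions (quartiles -0.12 and 0.14) and 0.04 over all regions. Of the 611, 320 (52.4%) were above 0, beside 54.8% of all regions. With DESeq2 size factors 415 (67.9%) were above 0, beside 64.7% of all regions. Without Area X silent library 1 the count was 156 (25.5%, beside 51.3% of all regions). Without Area X silent library 3 it was 459 (75.1%, beside 57.2%). These were the lowest and highest counts with single Area X libraries left out, so the split by sign was not settled. In 485 regions (79.4%) the log2 fold change lay within 0.25 of 0, and in 592 (96.9%) within 0.5. In this fit, whose estimate of spread is shared with the RA libraries, the half-width of the 95% interval had a median of 0.76. In 388 regions (63.5%) the interval lay wholly within 1 of 0, that is, within a 2-fold change either way. Fitted on the 7 Area X libraries alone, the half-width had a median of 0.53 and the log2 fold change one of -0.05. That fit called 0 regions. At an unadjusted edgeR p below 0.05 it had 5 of the 611 (4 higher and 1 lower in singing), beside 2.53% of all regions tested. The shares within 0.25, 0.5 and 1 were not counted over all regions, so they are not shown to be particular to the 611.

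Over the 136 regions wider than 4000 bp the median log2 fold change was 0.00 (range -0.33 to 0.36), and over the 44 in clusters it was 0.04. Over the 54 regions with a ratio of at least 3 it was 0.11 (quartiles -0.14 and 0.30), and 35 of them were above 0. Over the 145 regions of up to 1000 bp the median was also 0.00, with a wider range of -0.55 to 1.27. At the strongest region, chr2:26850722-26874974, the log2 fold change was 0.00 with a standard error of 0.39.

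The singing libraries lay wholly above the silent libraries of Area X in 26 of the 611 regions (4.26%), beside 1.51% of all regions and 1.65% of those with at least 10 CPM in Area X. They lay wholly below in 19 (3.11%), beside 2.37% and 3.14%. None of these regions passed the test. The 611 regions were stronger, with a median Area X CPM of 68.8. It was 12.1 over all regions and 25.8 over those with at least 10 CPM in Area X. The rule also used the CPM of the Area X libraries. How far signal and choice bear on these shares was not tested.

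The regions with the smallest p values were higher in singing Area X. At chr9:22022293-22022897 (605 bp), CPM was 7.85, 18.5, 23.1 and 15.7 in the Area X singing libraries and 8.19, 6.24 and 7.10 in the Area X silent libraries. Singing library 1 fell within the silent range, and the other 3 were above it. The log2 fold change was 1.23 (standard error 0.47, 95% interval 0.24 to 2.22, edgeR unadjusted p = 0.0179, adjusted p = 1.00). The RA means were 5.35 CPM for singing libraries and 3.57 CPM for silent ones.

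At chr2:70650745-70652928 (2184 bp), CPM was 40.5, 55.8, 91.3 and 80.5 in the Area X singing libraries and 36.2, 34.6 and 40.9 in the Area X silent libraries. Again library 1 of the singing group overlapped the silent ones. The log2 fold change was 0.88 (standard error 0.36, interval 0.12 to 1.64, edgeR unadjusted p = 0.0257, adjusted p = 1.00).

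A pair of neighbouring regions on chromosome 6 was among the 5 with the smallest p toward singing. At chr6:28181321-28181842 the singing libraries of Area X had 5.59, 11.1, 24.2 and 14.5 CPM and the silent libraries 5.17, 6.84 and 5.68, a log2 fold change of 1.27 (interval 0.06 to 2.49, edgeR adjusted p = 1.00). At chr6:28184197-28184542, close by, they had 26.1, 17.8, 24.4 and 26.3 CPM in singing and 15.9, 14.1 and 14.9 in silent birds, a log2 fold change of 0.67 (interval -0.07 to 1.4). The groups did not overlap at chr6:28184197-28184542, and at chr6:28181321-28181842 they did. The region chr6:28181321-28181842 was also 1 of 2 among the 611 with an unadjusted p below 0.05 when the singing effects of the nuclei were compared (log2 difference, Area X minus RA, 2.1, interval 0.18 to 4.03, edgeR adjusted p = 1.00). The RA means there were 2.50 CPM for singing libraries and 3.49 CPM for silent ones. RA singing library 2 had 0 CPM and RA singing library 4 had 1 read, so the RA side rests on few reads. With Area X singing library 3 left out, the Area X log2 fold change of this region was 0.75 (edgeR unadjusted p = 0.222).

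Toward silence, the region with the smallest p was chr5:7626391-7627574, with 29.8, 24.9, 33.3 and 33.2 CPM in the Area X singing libraries and 36.2, 39.1 and 48.6 in the Area X silent libraries. The groups did not overlap, and the log2 fold change was -0.46 (interval -1.12 to 0.20, edgeR adjusted p = 1.00). At chr1:2046089-2046976 the singing libraries were alike, at 15.9, 17.1, 16.5 and 17.0 CPM, below 24.6, 21.0 and 27 in the silent libraries. Its log2 fold change of -0.55 was the lowest of the 611, with an interval of -1.47 to 0.38.

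**Figure D5:**
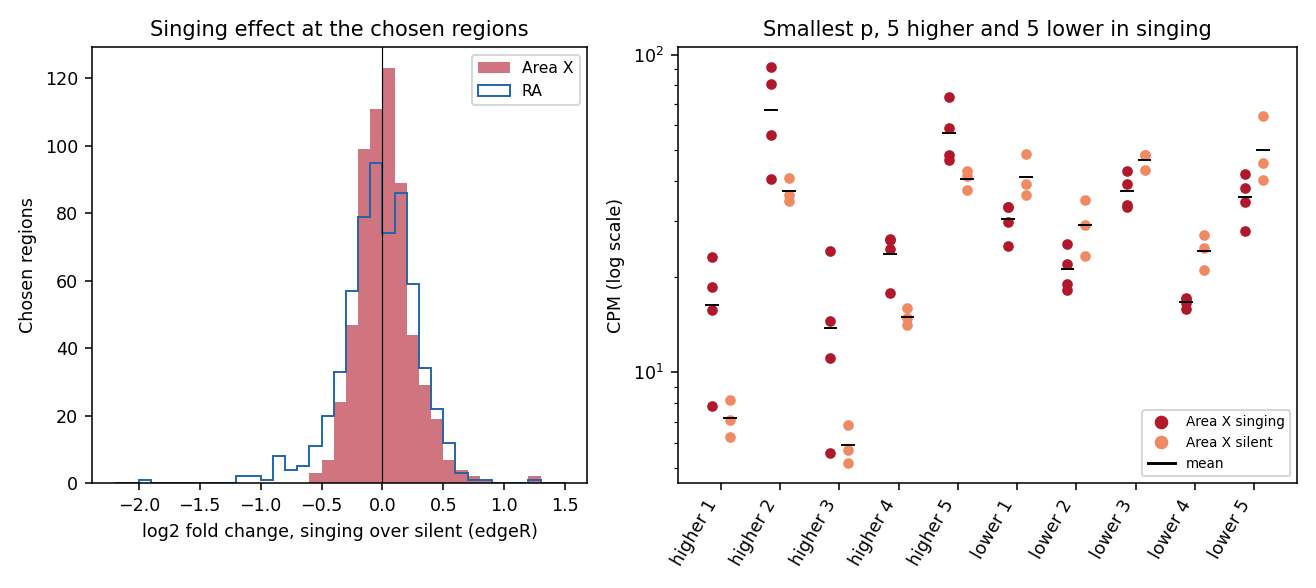
Left, number of Area X-high regions by log2 fold change of singing over silent in Area X (red) and in RA (blue outline). Right, CPM on a log axis in each Area X library (points; bars, means) at the 5 regions with the smallest p toward singing and the 5 toward silence, ordered by p; no region passed the adjusted threshold.

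In RA, 0 of the 611 regions passed the test of singing against silent birds (edgeR, 0% of all regions; 6 at an unadjusted p below 0.05, beside 706 or 1.96% of all; DESeq2 called 0). The singing libraries of RA lay wholly above the silent ones in 2 of the 611, beside 0.798% of all regions, and wholly below in 5, beside 0.979%. The median log2 fold change was -0.02 (quartiles -0.19 and 0.17), and 293 regions were above 0. These values depended on single libraries, most on RA silent library 2. Leaving out RA silent library 1 gave a median of -0.17, with 162 regions (26.5%) above 0, beside 48.5% of all regions. For RA silent library 3 these were -0.18, 148 (24.2%) and 53.1%. Without RA silent library 2 the median was 0.61, and 560 regions (91.7%) were above 0, beside 52.6% of all regions. Then 207 of the 611 had an unadjusted edgeR p below 0.05, all higher in singing RA, beside 9.22% of all regions. None passed the adjusted threshold even then (edgeR, lowest adjusted p = 0.337 over all regions). The rule chose the 611 by these same RA values, and RA silent library 2 was the highest RA library in 332 of them. An excess over the whole table with that library left out can thus come from the choice, and nothing is read from it. Without RA singing library 1 the median was 0.22, with 452 regions (74.0%) above 0, beside 54.3% of all regions. Of the 611, 7 had an unadjusted edgeR p below 0.05, beside 7.87% of all regions. With library number as a block, 0 regions were called in RA as well (lowest edgeR adjusted p = 0.557 over all regions).

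None of the 611 regions passed the test of whether the singing effect differed between Area X and RA (edgeR, 0% of all regions; 2 of 611 at an unadjusted p below 0.05, beside 210 or 0.584% of all; DESeq2 called 0 in the table). The median log2 difference of the singing effects, Area X minus RA, was 0.04 over the 611 regions and 0.09 over all regions. The difference was above 0 in 333 of the 611 (54.5%), beside 58.4% of all regions. Without RA silent library 2 the median over the 611 regions was -0.51. Then 86 of them (14.1%) were above 0, beside 54.8% of all regions. An unadjusted edgeR p below 0.05 was met by 92 of the 611, all below 0, beside 4.65% of all regions (lowest edgeR adjusted p = 0.998). The choice of the 611 by their RA values bears on these counts too, so nothing is read from them. Without RA singing library 1 the median was -0.24, and without RA silent library 3 it was 0.26. The direction thus depended on single RA libraries. With total-count scaling the median was -0.04, with 266 regions (43.5%) above 0, beside 51.7% of all regions. On the column-sum CPM scale, the ratio of Area X to RA had a median of 2.05 in singing birds (quartiles 1.79 and 2.48) and 2.23 in silent birds (1.85 and 2.69), larger in singing birds in 240 regions and in silent birds in 371. That split was not counted over all regions. RA silent libraries 1 and 3 had the smallest shares of reads in these regions (2.49% and 2.39%). RA silent library 2 had the largest share of the RA libraries (5.11%). Whether this bears on the split was not tested. The half-width of the interval of the difference between the singing effects had a median of 1.11 in log2 units. Moderate differences were thus not detectable at this depth and spread.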

How the data were processed

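The authors deposited raw read counts per genomic region for 14 H3K27ac libraries. HTSeq 0.6.1, MACS2 2.1, bedtools and SAMtools 1.1 are named, without roles, in the submitters' processing notes. No source used here gives the aligner, the genome build or the libraries whose reads defined the regions. Reads counted in a region depend on how that region was called, and totals are reads within regions, not sequencing depth. Starts are printed counted from 1.

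CPM used column sums. Counts were tested in R 4.3.3 with edgeR 4.0.16 (filterByExpr, which removed 4 regions, TMM, a mean per group over all 14 libraries, robust quasi-likelihood fit), with Benjamini-Hochberg adjustment over 35954 regions and a threshold of 0.05; DESeq2 1.42.0 was an alternative. CPM values are on the column-sum scale and log2 fold changes on the TMM scale. The test was run on simulated data with known changes before use. The simulation gave all regions the same spread, and its pass condition covered large changes only. Nothing is read from it about how often small changes are found.

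The labels name 1 sample per group, so each numbered column was treated as its own pool. Where 2 columns came from 1 pool, p-values measure technical spread in part. The labels state 3 pools, and no source used here gives the origin of the fourth singing library. Within groups, the lowest chi-square per degree of freedom between libraries was 2.25 (RA singing libraries 2 and 4), so no pair matched within counting error. Those 2 libraries had the fewest reads, 1.08 M and 0.203 M. The check does not decide whether columns shared a pool, since repeat libraries of 1 pool may also differ by more than counting error. Deviations of same-numbered singing and silent libraries correlated at 0.56, 0.01 and 0.51 in Area X and at 0.59, 0.11 and 0.18 in RA. Differently numbered libraries reached 0.32 in Area X and 0.47 in RA, so pairing was not settled. The main fit paired no libraries, and library number entered only as a block in an alternative. Same-numbered Area X and RA libraries correlated at 0.69, 0.03, 0.12 and 0.22 in singing birds and at 0.55, 0.43 and -0.18 in silent birds. Whether both nuclei came from the same birds or pools was not tested, and the fit treated all libraries as independent.

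Named regions follow a rule: the 10 highest in mean Area X CPM, the 10 largest ratios, the 5 widest and 3 narrowest, the 5 largest clusters, the 5 smallest p in each direction of singing, and regions beside the thresholds. The 2 widest separations and the cluster with the largest ratio of sums were named after their values were seen. The members and lists were chosen with earlier results of these data known. Alternatives were another scaling, no filter, other floors and gaps, single libraries left out, each nucleus fitted alone, a block for library number and DESeq2.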

Additional observations from a re-analysis of the deposited data

Results flagged for a closer look

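In 96 groups of 4 singing libraries, covering the named regions, the clusters and the share of reads, 2 had 1 library whose gap to the nearest of the others was past Dixon's 95% critical value; chance gives about 4.8. At the cluster chr13:432336-458521, Area X singing library 1 had a summed CPM of 955, beside 861, 866 and 870 in the other Area X singing libraries. At the cluster chr17:1529860-1548258, RA singing library 1 had 97.7 CPM, beside 202, 203 and 207 in the other RA singing libraries. The silent groups, with 3 libraries each, were not tested in this way.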

How the results depend on the processing

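Calls between singing and silent numbered 0 over the whole table in Area X, in RA and for their difference under every alternative run, except 1 region called in Area X by DESeq2, which is not among the 611. This covers leaving out each library in turn and the replicate block. The median singing log2 fold change over the 611 regions in Area X ranged between -0.15 and 0.14 without single libraries, and was -0.05 with the replicate block, so its sign is not fixed. In RA that median ranged between -0.18 (without RA silent library 3) and 0.61 (without RA silent library 2), and for the difference between the nuclei between -0.51 and 0.26 (without RA silent libraries 2 and 3).

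The selection changed more. With TMM-scaled CPM it held 1449 regions, 46 clusters, 14.5% of Area X reads, a median ratio of 2.40 and a median width of 1748 bp. With DESeq2 size factors these were 1331, 41, 13.8%, 2.34 and 1757 bp. A floor of 5 CPM gave a median width of 1772 bp and a floor of 20 CPM one of 2247 bp. Gaps of up to 50000 bp gave 34 clusters. Without single libraries the selection ranged between 615 and 1253 regions, 13 and 38 clusters, 7.05% and 13.8% of reads, ratios of 2.01 and 2.40, and widths of 1756 and 1993 bp. Chosen after seeing the data, leaving out RA silent library 2 and RA singing library 4 together gave 2609 regions, 114 clusters, 25.2% and a ratio of 2.61; leaving out RA singing libraries 2 and 4 gave 1557, 53, 15.3%, 2.34 and 1764 bp. Fewer RA libraries make the rule easier to meet by construction. Of the ratios of the named regions, 57 recomputed values moved by more than 1 SD between libraries and 343 by less; with libraries left out a ratio above 1 is fixed by the rule. Depth limits most the narrow regions, where RA singing library 4 holds few reads.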
